A study of Sus scrofa with 8 samples.

Results

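TNMD+ COL1A2+ cells of the embryonic pig somite and myotome were cells with at least 1 UMI of TNMD and at least 3 UMIs of COL1A2, no UMI of the cartilage genes MATN4 and ACAN and at most 1 UMI of the muscle gene MYH3. A UMI is 1 RNA molecule counted by its molecular tag. The cells were thus chosen by the measured UMIs of these 5 genes, which are given below only as a description. Of 82394 cells with at least 200 genes, at most 30000 UMIs and at most 10% of UMIs on the 13 mitochondrial genes, 1619 (1.96%) passed. All of them carried different barcodes, and 40 of these barcodes also occurred in another library. The cells came from 8 single-cell RNA-seq libraries, 1 for each of 4 stages in Tibetan pigs (ZZ) and in the Duroc x Tibetan cross (DZ). Somites were taken at E16, E18 and E21 and the myotome at E28, so stage and tissue cannot be told apart from E21 to E28. Each library pooled 5 embryos of a single sow, so every stage of every breed was measured once.

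Tendon cells of the body axis descend from the syndetome, the part of the sclerotome that lies next to the myotome. Tendon cells lay down the collagen fibres that tie muscle to bone. Scleraxis (SCX) marks their progenitors, MKX and EGR1 are further regulators, and TNMD is a membrane glycoprotein of maturing tendon cells. THBS4, COMP and the proteoglycan FMOD belong to the matrix in which the collagen fibrils are assembled. TNMD has also been found outside tendon, in other dense connective tissues. In Sscrofa11.1 the TNMD gene lies at chrX:82269323-82292083 and THBS4 at chr2:88729531-88780759.

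The series held between 6297 and 12173 cells per library after these filters, with a median of 3496 to 6338 UMIs per cell. E16-ZZ stood apart, with 39.2% of its barcodes over the mitochondrial limit against 1.05% to 9.15% in the other libraries. Only 42 TNMD+ COL1A2+ cells came from the 4 early libraries (E16 and E18) and 1577 from the 4 late libraries (E21 and E28). Comparisons of expression used the late libraries alone, each with at least 20 such cells. Values of the late libraries are given with E21 before E28 and, within a stage, ZZ before DZ.

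TNMD+ COL1A2+ cells were rare at E16 and E18 and more frequent at E21 and E28. In the order ZZ and DZ, their numbers were 8 and 4 (E16), 12 and 18 (E18), 170 and 169 (E21) and then, in the myotome, 854 and 384. As a share of the cells of a library this was 0.127% and 0.0377% at E16 and 0.116% and 0.174% at E18. The share was 1.46% (exact 95% binomial interval 1.25 to 1.70) in E21-ZZ and 1.66% (1.42 to 1.92) in E21-DZ, intervals that overlap. It was 7.86% (7.36 to 8.38) in E28-ZZ and 3.15% (2.85 to 3.48) in E28-DZ, intervals that do not. These intervals cover counting error only. The late libraries averaged 3.53% ± 2.98 (SD, n = 4) and the early ones 0.114% ± 0.0565 (n = 4), without overlap. The difference of 3.42 percentage points had p = 0.0286 in an exact two-sided permutation test, the smallest p that 70 splits allow. The split was chosen with earlier results of these data known, so this p describes no more than the lack of overlap. Without E28-ZZ the difference was 1.98 points, and without both myotome libraries it was 1.45 points. In the last case p was 0.133 by the same exact test, the smallest possible with 15 splits.

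COL1A2 itself became more frequent, which moves the share of any COL1A2-based gate. Cells with at least 3 COL1A2 UMIs made up 15.9% to 31.4% of the early libraries and 33.8%, 45.6%, 78.5% and 72.2% of the late ones. Among these cells, TNMD+ COL1A2+ cells were 0.238% to 0.554% in the early libraries and 4.33%, 3.63%, 10.0% and 4.37% in the late ones. The step between early and late libraries was therefore also present with COL1A2+ cells as the denominator, while E21 and E28-DZ were close to each other. After every cell was thinned to 3000 UMIs, the share of all cells was at most 0.0745% in the early libraries and 0.860%, 0.941%, 6.14% and 2.52% in the late ones.

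**Figure D1:**
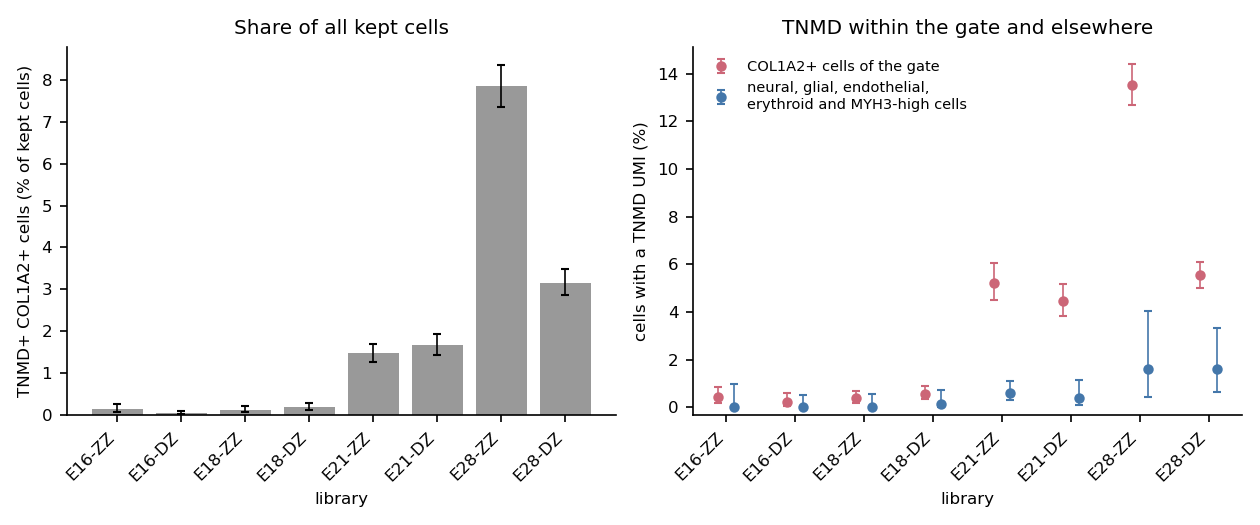
The left panel shows TNMD+ COL1A2+ cells as a percent of all cells kept in each of the 8 libraries, and the right panel shows the percent of cells with a TNMD UMI among COL1A2+ cells of the gate (red) and among neural, glial, endothelial, erythroid and MYH3-high cells with fewer than 3 COL1A2 UMIs (blue). Bars and points are single libraries with exact 95% binomial intervals. Shares lie at or below 0.174% in the early libraries and between 1.46% and 7.86% in the late ones.

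TNMD counts were low. Of the 1619 cells, 1061 (65.5%) held a single TNMD UMI and 558 held at least 2, and the highest count in a cell was 10. In TNMD+ COL1A2+ cells of the 4 late libraries TNMD was at 266, 239.6, 343 and 349 CPM, values that the rule raises. CPM are the UMIs of a gene scaled to the same total in every sum. In all cells that met the other criteria of the gate, with or without TNMD, it was at 14.4, 11.5, 49.3 and 22.4 CPM. Because free RNA can add a UMI to cells that do not express a gene, TNMD was also counted in endothelial, neural, glial, erythroid and MYH3-high cells with fewer than 3 COL1A2 UMIs. In the late libraries 12 of 1917, 3 of 746, 4 of 251 and 7 of 431 of these cells held TNMD, that is 0.626%, 0.402%, 1.59% and 1.62%, at median depths of 4773, 5187, 5650 and 4884 UMIs. Among the cells that met every other criterion of the gate, 5.23%, 4.46%, 13.5% and 5.55% held TNMD. The TNMD+ cells had median depths of 4413.5, 5298, 4053.5 and 4033.5 UMIs. At 3000 UMIs per cell the share in the gate was 3.49%, 2.89%, 10.4% and 4.08%, against 0.492%, 0.304%, 0% and 1.60% in the reference cells. TNMD within the gate was thus above the reference cells in each late library, and closest to them in E28-DZ. In the early libraries 1 reference cell of E18-DZ held TNMD and none of the other 3 libraries did. The gate held it in 0.436% (E16-ZZ), 0.244% (E16-DZ), 0.395% (E18-ZZ) and 0.571% (E18-DZ) of cells. In the same order, the exact binomial intervals of the reference cells reached up to 0.989%, 0.526%, 0.550% and 0.738%, above the gate share each time. The early counts therefore cannot show whether TNMD in the gate lay above the reference cells.

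TNMD was not particular to COL1A2+ cells without cartilage genes. Of 3750 cells with a TNMD UMI in all libraries, 971 had fewer than 3 COL1A2 UMIs, 1146 were left out for MATN4 or ACAN, and 14 for MYH3. TNMD+ COL1A2+ cells held 2597 of 6243 TNMD UMIs (41.6%). Cells with at least 10 UMIs of COL2A1 and 3 of MATN4 held TNMD in 18.99%, 19.1%, 26.1% and 14.2% of cases in the late libraries, at median depths of 5457, 6787, 5185.5 and 3414 UMIs, each above the share in the gate. At 3000 UMIs these shares were 12.9%, 10.7%, 18.2% and 8.78%. At the limits of the gate, 116 cells had exactly 3 COL1A2 UMIs and 154 further TNMD+ cells had exactly 2. A single MATN4 or ACAN UMI left out 210 cells. Exactly 1 MYH3 UMI was found in 74 cells of the gate, and 5 others had 2.

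SCX and COMP, defining markers of tendon, were nearly absent from the whole series and so from TNMD+ COL1A2+ cells. THBS4 was not called against other COL1A2+ cells. SCX was counted 70 times in all 82394 cells, and TNMD+ COL1A2+ cells of the late libraries held 0, 0, 0 and 2 of its UMIs. COMP had 10 UMIs in the series and none in these cells. Comparison was made with TNMD- counterparts, which met every other criterion of the gate and numbered 3081, 3621, 5458 and 6541 in the late libraries. THBS4, a secreted matrix glycoprotein, was at 8.16, 7.70, 20.3 and 170.2 CPM in TNMD+ cells and at 7.596, 7.20, 33.4 and 165 CPM in counterparts. The levels of the pair were close in each library except E28-ZZ, where the counterparts were higher. The log2 fold change of THBS4 was -0.23 ± 0.14 (SE), with an adjusted p of 0.61 in edgeR's quasi-likelihood test with Benjamini-Hochberg adjustment, which is used throughout. A THBS4 UMI was found in 2.94%, 4.14%, 6.21% and 34.6% of TNMD+ cells and in 3.28%, 3.51%, 9.89% and 33.4% of counterparts. THBS4 therefore differed far more between E28-DZ and the other libraries than between cells with and without TNMD.

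FMOD was at 51.3, 63.5, 72.6 and 118 CPM in TNMD+ cells against 41.7, 35.5, 79.7 and 115 CPM (adjusted p = 0.76). MKX was at 19.8, 2.89, 18.0 and 19.3 CPM against 7.80, 5.74, 11.5 and 10.3 CPM, higher in 3 of 4 libraries (log2 fold change 0.71 ± 0.22, adjusted p = 0.18). Neither passed the test. Without E21-DZ, the library in which it was lower, MKX was called, with a log2 fold change of 0.85 and an adjusted p of 0.037. Of the 16 tendon markers, TNMD chose the cells and SCX, COMP and ANGPTL7 were under the filter on low counts. Among the 12 tested, only COL11A1 was higher and none was lower, while 8 of the 12 had a fold change above 0 and the median log2 fold change was 0.37. The markers other than TNMD summed to 252, 259.8, 359 and 581 CPM in TNMD+ cells and to 187, 176, 332 and 471 CPM in counterparts, so the sum was higher in TNMD+ cells of each library. Without COL11A1, whose levels are given below, the remaining markers together were lower in TNMD+ cells of E28-ZZ and higher in the other libraries. Of 19 tendon regulators tested, MKX and EGR1 among them, none was called. Over all genes, 145 of 12892 were called in this comparison (1.12%), 78 of them higher (0.605%) and 67 lower (0.52%). SCX and COMP were counted too rarely in any cells to show whether these are tendon cells. With 1 of 12 tested markers called, the cells are named here by their rule and not as tendon cells.

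**Figure D2:**
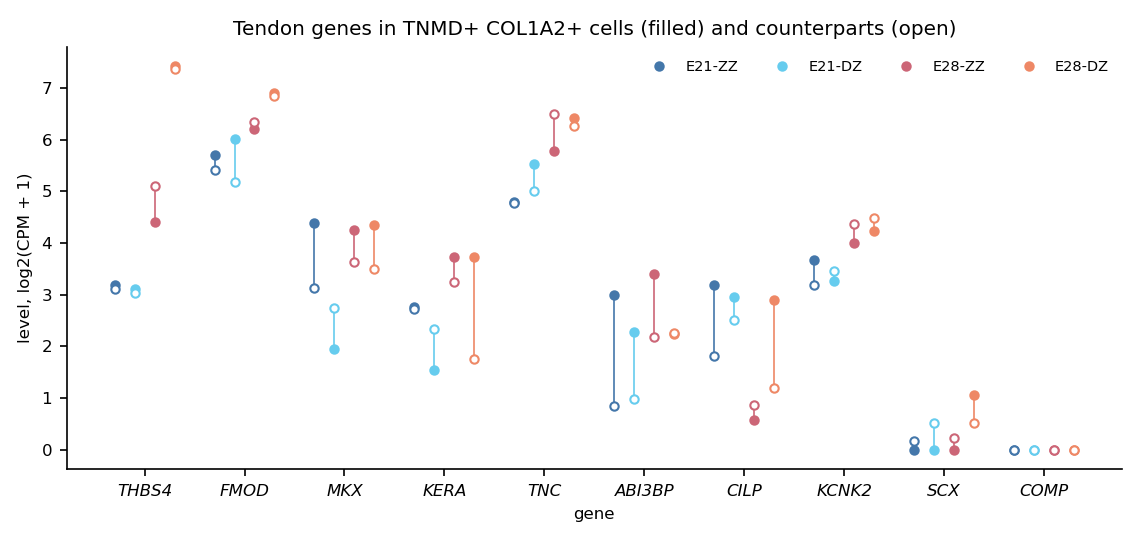
Levels, as log2(CPM + 1), of tendon markers in TNMD+ COL1A2+ cells (filled) and TNMD- counterparts (open) of the 4 late libraries. Each circle is 1 library and lines join the cells of the same library. THBS4 lies near the level of the counterparts in all libraries but E28-ZZ, and COMP is at 0 throughout.

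Against their counterparts, TNMD+ COL1A2+ cells had more RNA of several fibrillar and fibril-associated collagens and less of most muscle markers. COL1A1, the main chain of type I collagen, was at 444, 686, 1371 and 1134 CPM in TNMD+ cells and at 298, 295, 863 and 815 CPM in counterparts. COL12A1, a fibril-associated collagen, was at 139.9, 217, 179 and 149.8 CPM against 89.5, 91.7, 99.1 and 101 CPM. COL11A1, which initiates fibrils in cartilage and young tendon, was at 106, 118, 152 and 129 CPM against 81.4, 69.9, 81.1 and 55.5 CPM. All 3 were higher in each of the 4 libraries, as the rule for named genes asks. Their log2 fold changes were 0.71 ± 0.09 for COL1A1 (adjusted p = 0.00135), 0.81 ± 0.09 for COL12A1 (adjusted p = 0.000863) and 0.84 ± 0.10 for COL11A1 (adjusted p = 0.00135). With the sparse E18 sums added, the fold change of COL1A1 fell to 0.20 and was no longer called. COL1A2, which chose the cells, had a median of 6, 6, 11 and 10.5 UMIs per TNMD+ cell and 5, 5, 8 and 7 per counterpart, although the minimum of 3 was the same for both. Its part in the difference of the other collagens was not tested.

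Of 27 collagens tested, 6 were higher, the other 3 being COL3A1, COL5A2 and COL15A1, and none was lower. The median log2 fold change of the list was 0.37, against -0.02 over all genes, and 24 of 27 were above 0. Cartilage markers moved with the collagens. Those that the gate did not use summed to 562, 489.8, 296 and 325 CPM in TNMD+ cells and to 373, 334, 271 and 244 CPM in counterparts, with COL2A1 called among 11 tested. A COL2A1 UMI was found in 55.9%, 61.5%, 39.9% and 40.4% of TNMD+ cells and in 44.0%, 45.6%, 30.9% and 23.7% of counterparts. The part of cartilage cells in the collagen difference was not tested. Of 12 small leucine-rich proteoglycans, which coat collagen fibrils, BGN and ASPN were higher. BGN was at 304, 280.0, 179.6 and 225 CPM in TNMD+ cells and 166, 142.5, 149.6 and 173 CPM in counterparts, a log2 fold change of 0.58 ± 0.10. ASPN was nearly absent at E21, with 0 and 6.74 CPM, and stood at 32.1 and 251 CPM at E28 against 18.7 and 65.5 CPM. Of 10 fibroblast markers, COL3A1 was higher and OSR2 lower, and LUM and OGN were not called. The fibroblast markers summed to 3134, 2581, 5168 and 5375 CPM in TNMD+ cells and to 2385, 2356, 4729 and 4093 CPM in counterparts, so the sum was higher in TNMD+ cells of each library. Of 33 matricellular and elastic-fibre proteins, THBS1, FBN2 and EMILIN1 were higher, and of 35 collagen-processing proteins only the prolyl hydroxylase subunit P4HA3 was.

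ALCAM, an adhesion molecule of the immunoglobulin family, was higher in TNMD+ cells, by the rule for named genes in every library. It was at 103, 87.6, 51.9 and 44.6 CPM in TNMD+ cells and at 45.6, 27.7, 28.7 and 19.99 CPM in counterparts (log2 fold change 1.16 ± 0.12, adjusted p = 0.000492). CDH11, the cadherin of mesenchymal cells, was at 189, 209.8, 252 and 161 CPM against 141, 132.5, 156 and 103 CPM (0.60 ± 0.06, adjusted p = 0.00074). The secreted protease HTRA1 was at 81.6, 100.1, 134.1 and 231 CPM against 73.5, 54.9, 72.9 and 108 CPM. The mechanically gated channel PIEZO2 was at 50.1, 14.4, 95.4 and 61.2 CPM against 19.5, 13.1, 39.1 and 39.1 CPM, with little difference in E21-DZ. Other genes of the named set, taken by the size of the fold change, included CPE, SELENOM, ALDH2, NKD1, AEBP1, PCDH9 and COL2A1, with log2 fold changes between 0.61 and 0.84.

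The smooth muscle genes ACTG2 and MYL9 were higher in TNMD+ cells, with their highest levels in E21-DZ. ACTG2, smooth muscle gamma-actin, was at 31.5, 269, 5.93 and 17.7 CPM in TNMD+ cells and 15.9, 10.0, 1.82 and 3.84 CPM in counterparts (log2 fold change 2.87 ± 0.48), and MYL9, the smooth muscle myosin light chain, was at 145, 364, 176 and 131 CPM against 100.3, 96.0, 117 and 102 CPM. ACTA2 (log2 fold change 1.03, adjusted p = 0.43) and CNN1 (1.17, adjusted p = 0.20) were above 0 but not called. At least 10 UMIs of ACTA2 were found in 1, 14, 16 and 23 of the TNMD+ cells, with up to 571 in a cell of E21-DZ. Leaving such cells out took the counterparts from 3081, 3621, 5458 and 6541 to 3032, 3532, 5283 and 6280. Such cells were a larger part of counterparts than of TNMD+ cells in both ZZ libraries and a smaller part in both DZ libraries. Without such cells in either arm, a choice made after seeing the data, ACTG2 was at 1.17 with an adjusted p of 0.059 and was no longer called, and MYL9 was at 0.48 and was called. Without E21-DZ the log2 fold change of ACTG2 was 1.59 and it was still called (adjusted p = 0.00886). Of 31 genes of the mechanical response, 5 were higher (PIEZO2, FLNA, CNN2, TPM1 and MYL9) and none was lower. That list also holds smooth muscle genes, ACTA2, TAGLN and MYL9 among them, so it is not separate from them.

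Signalling genes were called in single members, while some lists leaned in a single direction. A fold change above 0 was found for 21 of 27 BMP genes (median log2 0.29), and 16 of 20 FGF genes were below 0 (-0.21). The medians of the TGF-beta, WNT and Hedgehog lists were 0.15, 0.086 and 0.20. Of 27 BMP genes, the ligand BMP4 and the target ID3 were higher, BMP4 with 109.6, 80.8, 149.2 and 59.1 CPM against 72.6, 51.9, 73.9 and 51.3 CPM. Of 23 TGF-beta genes the ligand TGFB2 was higher. The activin-binding inhibitor FST was lower, at 4.66, 3.85, 29.4 and 59.6 CPM in TNMD+ cells against 16.7, 12.0, 67.4 and 101 CPM (log2 fold change -1.07 ± 0.13). Of 31 WNT genes the feedback inhibitor NKD1 and the secreted inhibitor WIF1 were higher, of 20 FGF genes the receptor FGFR2 was higher and the inhibitor SPRY2 lower, and of 9 Hedgehog genes the feedback inhibitor HHIP was higher. None of 26 HOX genes was called. Of 36 regulators of axial and limb mesenchyme, MSX1 and PRRX2 were higher and SHOX2, OSR2 and EBF2 lower. MSX1, a homeobox gene of undifferentiated mesenchyme, was at 59.5, 30.8 and 29.9 CPM against 23.5, 13.04 and 8.16 CPM in the first 3 libraries, and at 1.07 against 0.959 CPM in E28-DZ. The log2 fold change of MSX1 was 1.47 ± 0.17 (adjusted p = 0.00135). None of 26 cell cycle genes and 14 dissociation response genes was called.

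Muscle genes were lower. Of 12 muscle markers tested, 9 were lower and none was higher, with a median log2 fold change of -0.83. MYMK, the fusogen of myoblasts, was at 6.997, 2.89, 17.5 and 67.7 CPM in TNMD+ cells and 30.9, 24.4, 54.5 and 126 CPM in counterparts (log2 fold change -1.40 ± 0.17, adjusted p = 0.00135). CDH15, the cadherin of muscle precursors, was at 18.7, 21.2, 53.6 and 89.7 CPM against 48.0, 46.2, 101 and 131 CPM. The summed markers ranged from 315 to 2091 CPM in TNMD+ cells and from 819 to 3147 CPM in counterparts, and the counterparts were higher in each library. When cells with a UMI of PAX7, MYF5, MYOD1, MYOG, MYMK or CDH15 were left out of both arms, also decided after seeing the data, 70 genes were called in place of 145. ALCAM, CDH11, COL1A1, COL11A1, COL12A1, HTRA1, PIEZO2, MSX1 and COL2A1 were still called. BMP4 and BGN were not, and ACTC1 and PARM1 changed sign.

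Markers of other cell types differed between the arms. Summed erythroid markers were at 8500.3, 145, 2620.2 and 2346 CPM in TNMD+ cells and 1078, 1128, 697 and 1097 CPM in counterparts, so the sum was higher in TNMD+ cells in 3 libraries and lower in E21-DZ. Only 1, 0, 2 and 2 TNMD+ cells held at least 5% globin UMIs. In E21-ZZ, leaving out that 1 cell lowered the UMIs of all genes in the sum from 857495 to 838810. Very few cells can therefore carry these sums. All 7 erythroid markers had a fold change above 0 (median log2 1.11) and none was called. Epithelial KRT8 was at 8.16, 23.1, 5.68 and 5.91 CPM against 161, 118, 36.3 and 2.62 CPM and was lower, as was KRT18. Endothelial markers summed to 135, 92.4, 56.6 and 172 CPM in TNMD+ cells and 111, 71.6, 66.7 and 70.3 CPM in counterparts, higher in TNMD+ cells of 3 libraries. Of the 8, 7 had a fold change above 0 (median log2 0.69) and none was called. Of 7 neural markers, STMN2 was lower, at 513, 277, 340.2 and 607 CPM in TNMD+ cells against 648, 322, 515 and 823 CPM in counterparts. Of 5 neural crest and glia markers, all had a fold change below 0 (median -0.75), and SOX10 was lower, at 8.16, 1.92, 2.96 and 1.07 CPM against 22.7, 8.66, 8.37 and 5.68 CPM. Bone markers summed to 45.5, 26.0, 35.1 and 27.9 CPM in TNMD+ cells and 23.1, 21.5, 21.8 and 24.9 CPM in counterparts, higher in TNMD+ cells of each library, and macrophage markers to 1.17, 4.81, 16.6 and 0.537 CPM against 14.8, 8.17, 11.8 and 15.3 CPM. None of 6 bone and 5 macrophage markers was called. The part of these cell types in the collagen genes and in ALCAM and CDH11 was not tested.

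**Figure D3:**
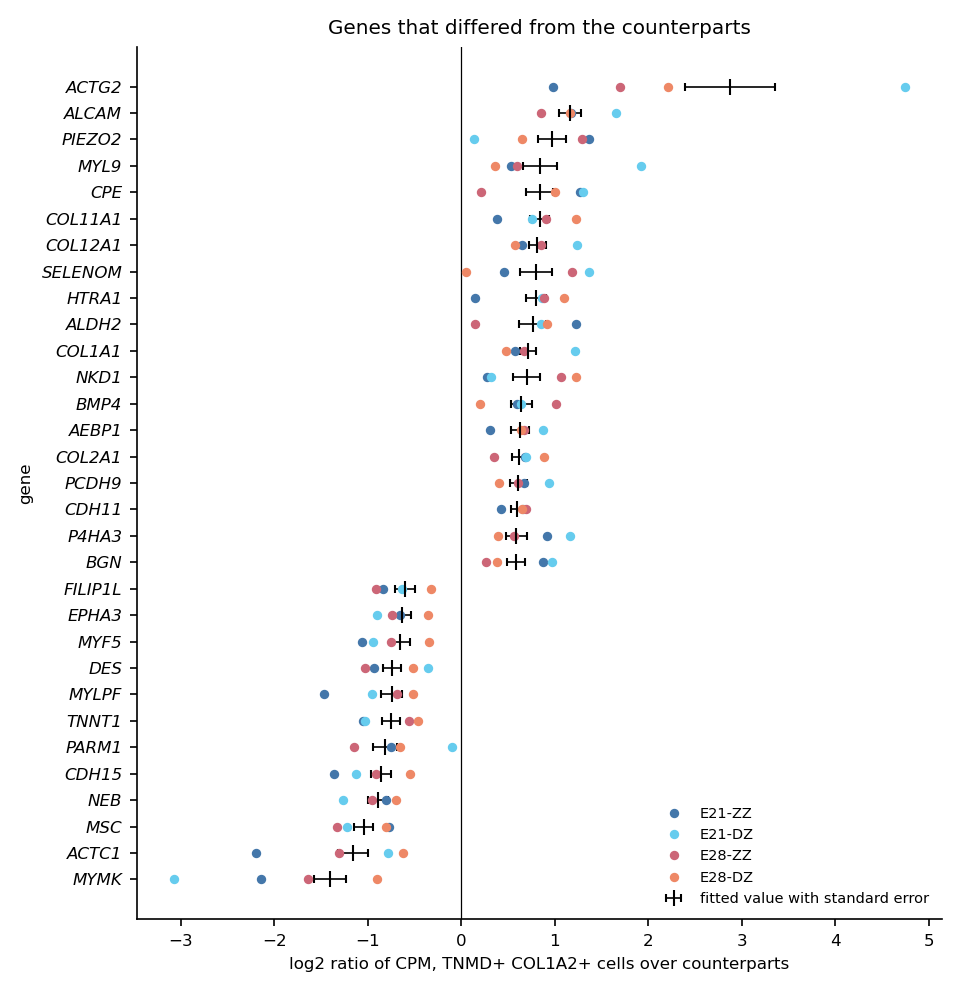
Log2 ratio of CPM in TNMD+ COL1A2+ cells over TNMD- counterparts for genes among the 20 higher and 12 lower ones with the largest log2 fold changes that passed the test. Coloured points are the 4 late libraries, and black bars are the fitted value with its standard error. Genes were drawn only where all 4 libraries lay on the same side of 0, and the ACTG2 and MYL9 values of E21-DZ stand apart.

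The 145 calls depended on treating cells of a library as paired. With the library left out of the model no gene was called (259 had an unadjusted p under 0.05). Leaving out E21-ZZ gave 88 calls and leaving out E28-ZZ gave 90. In every alternative other than the one without the library block, 7 of the 20 named higher genes and 3 of the 12 named lower genes stayed called where tested. These were ALCAM, COL11A1, COL12A1, HTRA1, COL2A1, PCDH9 and CDH11, and MYMK, CDH15 and EPHA3.

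TNMD+ COL1A2+ cells were also set against counterparts with at least 1 UMI of OGN, a proteoglycan of fibroblasts, numbering 770, 881, 3586 and 4747 in the late libraries. TNMD+ cells were not asked to hold OGN, and 30.6%, 33.7%, 58.8% and 85.9% of them did. This comparison shares its TNMD+ cells with the first and takes its other arm from the counterparts, so the comparisons are not independent. Here 69 of 11529 genes were called (0.598%), 30 higher (0.26%) and 39 lower (0.338%) in TNMD+ cells. The WNT feedback inhibitor NKD1 was at 70.0, 68.3, 87.2 and 14.5 CPM in TNMD+ cells and 42.9, 32.9, 32.9 and 7.74 CPM in OGN+ cells (log2 fold change 1.09 ± 0.13). ALCAM was at 51.9, 29.3, 36.3 and 26.0 CPM in OGN+ cells (0.90 ± 0.14), by the rule for named genes below the TNMD+ cells in each library. COL12A1, CDH11, AEBP1, ACTN1, CRABP1, MSX1, PRRX2 and the bone regulator RUNX2 were also higher.

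The ephrin receptors EPHA3 and EPHA4, which guide cells by repulsion, were lower than in OGN+ cells. EPHA3 was at 33.8, 37.5, 46.0 and 106 CPM in TNMD+ cells against 64.9, 73.2, 98.5 and 177 CPM, and EPHA4 at 39.7, 40.4, 65.2 and 79.5 CPM against 75.4, 75.0, 119 and 131 CPM. The ranges of the arms overlap across libraries, but within each library the TNMD+ cells were lower, as the rule for named genes asks. Their log2 fold changes were -0.93 ± 0.09 and -0.84 ± 0.08 (adjusted p = 0.00327 for both). EBF2, a transcription factor of mesenchymal precursors, was at 39.7, 62.5, 84.5 and 164 CPM against 83.6, 88.0, 168 and 268 CPM (log2 fold change -0.82 ± 0.09). FST, SPRY2, OSR2 and NR2F2 were lower as well. None of 12 muscle markers and none of 10 tendon markers was called, and THBS4 had a log2 fold change of -0.67 (adjusted p = 0.098). Other markers moved in this comparison too. Of 3 epithelial markers KRT8 (log2 fold change -2.70) and KRT18 (-2.40) were lower, and of 7 neural markers STMN2 was lower (-0.52). All 6 erythroid markers had a fold change above 0 (median log2 0.71), with none called. The part of these cell types was not tested. Leaving out E21-ZZ or E28-ZZ reduced the calls to 28 and 21. Outside the fit without the library block, ACTN1 alone of 11 named higher genes stayed called in every alternative where it was tested, and 6 of 12 named lower genes did (EPHA3, EPHA4, EBF2, FILIP1L, MEST and SMARCA2). NKD1 and CDH11 were not called without E28-ZZ (adjusted p = 0.081 and 0.18), ALCAM was not without E21-ZZ (0.12), and COL12A1 and AEBP1 were not without E21-ZZ, E21-DZ or E28-ZZ (0.051 to 0.25).

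Cartilage cells were taken as TNMD- cells with at least 3 UMIs of COL2A1, a UMI of ACAN or MATN4 and at most 1 of MYH3, and they numbered 850, 1034, 1201 and 921. In this comparison 775 of 11501 genes were called (6.74%), 410 higher (3.56%) and 365 lower (3.17%) in TNMD+ cells. All 12 cartilage markers tested that the gates did not use were lower, with a median log2 fold change of -4.17. SOX9, the master regulator of cartilage, was at 93.3, 62.5, 35.3 and 40.8 CPM in TNMD+ cells and 258, 179, 338 and 277 CPM in cartilage cells. COL9A1 was at 115, 97.2, 59.8 and 48.3 CPM against 337, 301, 1107 and 1512 CPM. These markers move with ACAN, MATN4 and COL2A1, which chose the cells, so the comparison describes how far the gates separate the types.

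Against cartilage cells, 5 of 10 fibroblast markers (LUM, DCN, COL3A1, COL6A3 and PRRX1) and 14 of 28 genes of the mechanical response were higher in TNMD+ cells. The 14 include the smooth muscle genes ACTA2, TAGLN and MYL9. No fibroblast marker was lower, and WWTR1, ITGA10 and ITGA11 of the mechanical response were. At least 3 COL1A2 UMIs were asked of TNMD+ cells but not of cartilage cells. Fibroblast and collagen genes that move with COL1A2 can be higher by this rule, and its part was not tested. The smooth muscle genes ACTG2 (log2 fold change 3.67) and ACTA2 (3.45) led the named higher genes, which also held TAGLN (2.10) and MYL9 (1.82). In every alternative other than the fit without the library block, that without cells of 10 ACTA2 UMIs included, these genes stayed called where tested. The part of smooth muscle cells below that limit was not tested. CRABP1, a retinoic acid binding protein, was at 2149, 1933, 2496 and 788 CPM in TNMD+ cells and 348, 199, 209 and 92.0 CPM in cartilage cells (log2 fold change 3.09 ± 0.13). PRRX1, a homeobox gene of mesenchyme, was at 86.3, 114, 256 and 130.0 CPM against 15.8, 20.3, 41.1 and 35.5 CPM (2.30 ± 0.14). Both were higher in each library, as the rule for named genes asks, and several-fold. With sums of at least 10 cells, CRABP1 had a log2 fold change of 2.08 and was no longer called (adjusted p = 0.051), whereas PRRX1 was called in every alternative run. Outside the fit without the library block, 15 of the 20 named higher genes and 10 of the 12 named lower ones stayed called where tested. Of 29 WNT genes, 8 were higher and none was lower, among them DKK2 with 56.0, 83.7, 194 and 157 CPM against 17.5, 12.9, 61.4 and 88.3 CPM. Of 19 tendon regulators, 4 were higher, EGR1, SIX2 and NFATC4 among them, and the Hedgehog effector GLI1 was lower, with a median log2 fold change of -0.05 and 9 of 19 above 0. SIX2 was at 23.3, 9.62, 27.4 and 40.3 CPM against 2.39, 0.839, 6.08 and 13.3 CPM, and GLI1 at 34.99, 17.3, 6.67 and 6.98 CPM against 38.0, 37.4, 29.9 and 22.4 CPM. EGR1 is also a gene of the dissociation response, and of 13 such genes EGR1, DUSP1 and KLF6 were higher and NR4A1 lower, with 11 above 0. MKX had a log2 fold change of -0.94 and was not called (adjusted p = 0.14). Of 26 collagens, 9 were higher and 3 lower, COL11A1 among the latter. Of 11 tendon markers tested, KERA and KCNK2 were higher and COL11A1 lower, and THBS4 was not called (adjusted p = 0.34). Of 12 muscle markers, PAX7, MYF5, TNNT1 and DES were higher and none was lower (median 0.79). Of 5 neural crest and glia markers SOX10, CDH19 and ERBB3 were lower, and of 6 neural markers STMN2 and NES were higher. All 6 erythroid markers had a fold change above 0 (median log2 1.66), with none called. The part of these cell types in the comparison was not tested. Without E28-ZZ, 264 genes were called.

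From E21 to E28 the genes called in TNMD+ COL1A2+ cells included secreted factors and guidance cues. PTN, a heparin-binding growth factor, was at 218 and 227 CPM at E21 and at 1858 and 2021 CPM at E28, ZZ before DZ (log2 fold change 3.08 ± 0.20, adjusted p = 0.00433). The WNT modulator SFRP2 was at 84.0 and 50.04 CPM and then 377 and 406 CPM (2.52 ± 0.23), and the neuroserpin gene SERPINI1 at 4.66 and 2.89 CPM and then 113 and 93.4 CPM (4.75 ± 0.35). The 2 libraries of each stage lay close together, while the lack of overlap between stages was asked by the rule for named genes. OGN was at 176 and 121 CPM at E21 and 737 and 1619 CPM at E28, a log2 fold change of 2.94 ± 0.36. VCAM1, an adhesion molecule, SMARCA2, a chromatin remodelling ATPase, and PRSS35 were also higher at E28. PTN and SERPINI1 moved in the same direction in counterparts, which were not tested between stages. There PTN was at 350.3 and 519 CPM at E21 and at 1202 and 1099.9 CPM at E28. SERPINI1 was at 15.2 and 14.7 CPM and then 71.9 and 28.1 CPM in counterparts. Muscle markers moved with the stage. They summed to 315 and 445 CPM in TNMD+ cells at E21 and to 677 and 2091 CPM at E28, and 8 of 9 tested had a fold change above 0 (median log2 2.49), with none called. Their part in the stage difference was not tested. None of 8 tendon markers was called either, and all 8 had a fold change above 0 (median log2 0.71).

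The chemokine CXCL12 was lower at E28, with 617 and 633 CPM at E21 and 129 and 170.2 CPM at E28 (log2 fold change -2.11 ± 0.19, adjusted p = 0.010). The ephrin receptor EPHA7 was at 145 and 118 CPM and then 22.7 and 19.3 CPM (-2.65 ± 0.23). The neuropeptide NPY, at 283 and 132.8 CPM at E21 and 10.1 and 18.8 CPM at E28, was also lower, as were LAMC3, APOD and CKB. Counterparts moved in the same direction for CXCL12, from 369 and 306 CPM at E21 to 192 and 185 CPM at E28. In counterparts EPHA7 went from 54.2 and 49.5 CPM to 26.0 and 23.6 CPM, and NPY from 229 and 109 CPM to 20.4 and 21.9 CPM. Neural markers were tested in the stage comparison of TNMD+ cells, and 4 of 5 had a fold change below 0 (median log2 -1.17), with none called. The libraries held 1447 and 463 neural cells at E21 and 52 and 200 at E28 among those counted for TNMD above. Their part in the lower genes was not tested. The test called 17 of 9339 genes (0.182%), 10 higher (0.107%) and 7 lower (0.075%), and 967 had an unadjusted p under 0.05. DESeq2 called 106. PTN, SFRP2, EPHA7 and CXCL12 were called under every alternative run. ASPN and THBS4 differed between E28-ZZ and E28-DZ, with 32.1 and 251 CPM and with 20.3 and 170.2 CPM, and neither was called between stages.

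The share of cells with LUM and OGN also differed between the stages, in TNMD+ cells and in counterparts. LUM and OGN were found together in 17.1% and 11.2% of TNMD+ cells at E21 and in 46.1% and 47.9% at E28, and neither gene was found in 45.3% and 43.8% at E21 and in 2.81% and 5.99% at E28. In the counterparts both were found in 11.5%, 11.2%, 45.4% and 35.4% of cells and neither was found in 38.3%, 35.3%, 8.59% and 13.4% of cells. At E28 the 2 libraries differed in which gene was found alone, with LUM only in 38.4% of E28-ZZ and 8.07% of E28-DZ cells and OGN only in 12.6% and 38.0%. The counterparts differed in the same directions, with LUM only in 25.7% and 14.0% and OGN only in 20.3% and 37.1%.

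**Figure D4:**
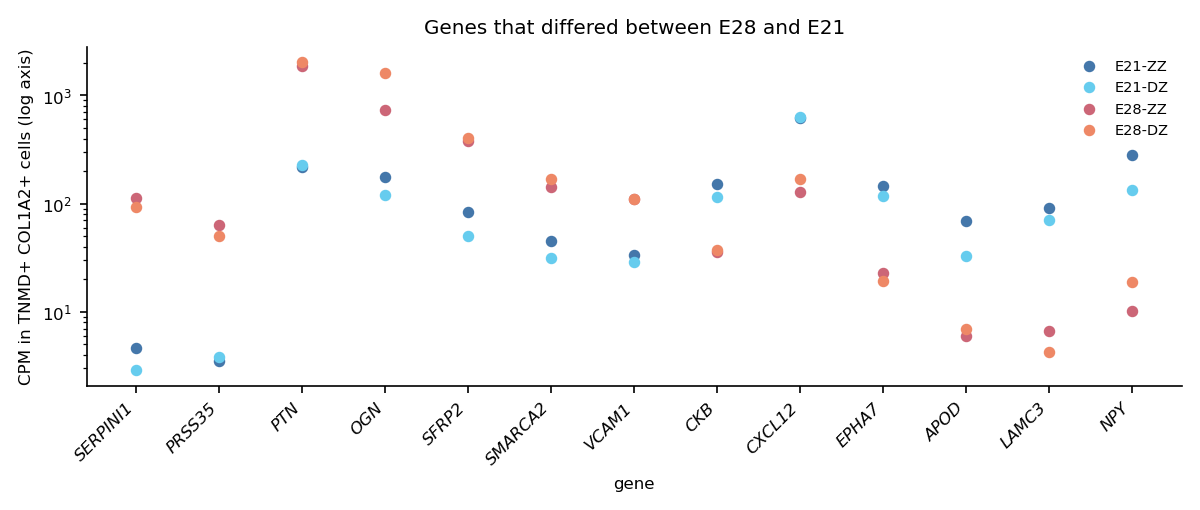
CPM, on a log axis, in TNMD+ COL1A2+ cells of the 4 late libraries for genes among those that passed the test between E28 and E21 and the rule for named genes. Each point is 1 library. The 2 libraries of a stage lie close together for PTN, SFRP2, EPHA7 and CXCL12.

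Between breeds, with the stage as a block, 0 of 9339 genes were called (0%), 433 had an unadjusted p under 0.05 and DESeq2 called 9. Other cell filters gave up to 57 calls and no filter on low counts gave 161, so the count of 0 was not stable. The 13 dissociation response genes tested were all higher in DZ, with a median log2 difference of 1.11 against -0.0024 over all genes, and none was called. Of 9 muscle markers 8 were above 0 (median 1.11) and all 3 erythroid markers below 0 (median -2.92), again with none called. HOXA10, a gene of the posterior trunk and hindlimb, was at 1.17, 3.85, 188 and 2.15 CPM in TNMD+ cells and 1.999, 23.3, 106 and 2.21 CPM in counterparts. E28-ZZ was thus far higher than E28-DZ in both populations. Of 21 HOX genes tested between breeds in TNMD+ cells, 10 were above and 11 below 0 (median log2 -0.057), with none called. Breed, pool of embryos and the dissected axial level cannot be told apart in single libraries.

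The contrast between TNMD+ cells and counterparts was not the same at both stages. For 70 of 12892 genes (0.543%) it differed between E28 and E21 in the test of the interaction, 34 towards higher (0.264%) and 36 towards lower (0.279%) in TNMD+ cells at E28. PTN was at 218 and 227 CPM in TNMD+ cells and 350.3 and 519 CPM in counterparts at E21, and at 1858 and 2021 CPM against 1202 and 1099.9 CPM at E28. It was thus below the counterparts at E21 and above them at E28, with a difference of log2 ratios of 1.72 ± 0.13. LUM went from 439.7 and 262 CPM against 411 and 438 CPM at E21 to 1409 and 916 CPM against 1019 and 410.1 CPM at E28 (1.15 ± 0.21). COL14A1, a fibril-associated collagen, went the other way, from 77.0 and 73.1 CPM against 14.7 and 16.3 CPM at E21 to 34.3 and 89.7 CPM against 45.8 and 81.1 CPM at E28 (-2.37 ± 0.21). CXCL12, EPHA7 and the proteoglycan VCAN were likewise above the counterparts at E21 and near or below them at E28.

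Of the listed groups, the dissociation response had 4 of 14 members lower in the interaction (FOS, FOSB, ATF3 and EGR1) and none higher, and its median was -0.59 against 0.03 over all genes. These genes respond to tissue handling as well as to growth factors, and the part of either was not tested. Of 27 collagens, COL14A1 and COL8A1 were lower and none was higher. None of 12 tendon markers was called. Of 19 tendon regulators, ZFHX3 was higher (0.90) and EGR1 (-0.74) and KLF2 (-0.95) were lower. Markers of other cell types moved as well. Of 12 muscle markers 10 were above 0 (median 0.83), and TNNT1 was called (0.55). Endothelial markers were above 0 in 7 of 8 cases (median 1.18) and macrophage markers in 5 of 5 (median 1.96), with none called, and the cartilage marker SCRG1 was lower (-1.30). Their part in the interaction was not tested. The number of calls rose to 209 without E21-ZZ, 152 without E28-ZZ and 215 without E28-DZ, so it rests on which libraries enter.

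**Figure D5:**
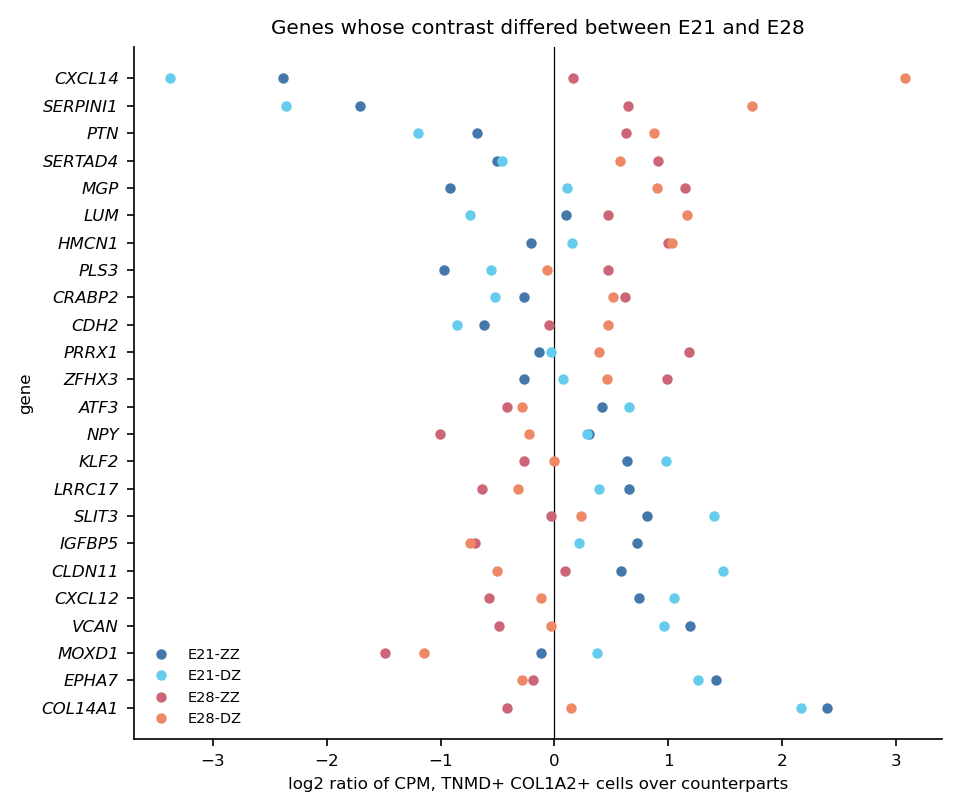
Log2 ratio of CPM in TNMD+ COL1A2+ cells over TNMD- counterparts for the 24 named genes whose contrast differed between E28 and E21. Each point is 1 of the 4 late libraries, blue for E21 and red or orange for E28. Genes were drawn only where the stages did not overlap, with the higher ratios at E28 in the upper 12 genes and at E21 in the lower 12.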

How the data were processed

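Single-cell RNA-seq (10x Chromium 3' version 3) was measured in 8 libraries. The deposited values are whole UMI counts per gene and barcode that the authors made with Cell Ranger (3.1.0 for E16 and 3.0.2 for the others, per the file headers) on Sscrofa11.1 with the Ensembl 98 annotation, limited to barcodes called as cells and not normalized. Here barcodes were filtered by the limits above, which follow the study. The study removed doublets with DoubletFinder. Here none were removed in the main analysis, and Scrublet (scanpy 1.11.5) was an alternative. Its automatic threshold marked almost no barcodes in 7 libraries and did not work, so the highest scores were removed at 0.8% per 1000 barcodes, which took 203 of 1619 members.

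Libraries were the replicates. UMI counts were summed per library and population where at least 20 cells were present, and these sums were tested with edgeR 4.0.16 (quasi-likelihood, TMM, filterByExpr, Benjamini-Hochberg at 0.05), with DESeq2 1.42.0 as an alternative. The library was a block against other cells, since both arms came from the same embryos, and the stage a block between breeds. CPM are UMIs of a gene over all UMIs of a sum, scaled to a common total. The SE of a fold change was derived from the test, as its absolute log2 value over the square root of the quasi-likelihood F statistic. Each stage and breed has 1 library, so tests between stages took the breeds as replicates. Named genes were the 20 largest higher and 12 largest lower log2 fold changes (12 in each direction between stages and breeds) among called genes with a mean of at least 50 CPM in the higher arm and the same direction in every library (for the interaction, ratios of the stages that do not overlap), plus any tested member of the gene lists. A few named genes are not reported here. HOXA10, the smooth muscle gene ACTA2 and other genes given as context come from those lists. The members, lists and comparisons were chosen with earlier results of these data known. Computations used Python 3.11.15 and scipy 1.17.1, and the tests were checked on simulated counts.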

Additional observations from a re-analysis of the deposited data

Results flagged for a closer look

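E28-ZZ stood apart from the other 3 late libraries in the share of TNMD+ COL1A2+ cells among cells with at least 3 COL1A2 UMIs (10.0% against 3.63% to 4.37%), with Dixon's ratio of gap to range at 0.884, and in the share with TNMD within the gate (13.5% against 4.46% to 5.55%), with a ratio of 0.880. E21-DZ stood apart in the log2 ratio of MYL9 to the counterparts (1.92 against 0.36 to 0.59), with a ratio of 0.849. E21-ZZ stood apart for CDH11 (0.43 against 0.65 to 0.69), with a ratio of 0.846. All exceed the 95% critical value for groups of 4. These were 4 of 42 groups of 4 libraries examined. Chance gives about 1 in 20 for independent groups that were not selected. Most of these groups were named genes chosen on the same libraries, and both flagged shares count the same cells, so that rate does not apply.

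The ratio of TNMD+ COL1A2+ cells to TNMD- counterparts differed between E28 and E21, by edgeR's test of the interaction with Benjamini-Hochberg adjustment, for 24 named genes. The difference of log2 ratios, E28 minus E21, was 3.68 for CXCL14, 3.14 for SERPINI1, 1.72 for PTN, 1.30 for SERTAD4, 1.27 for MGP, 1.15 for LUM, 1.05 for HMCN1, 1.00 for PLS3, 0.98 for CRABP2, 0.96 for CDH2, 0.94 for PRRX1 and 0.90 for ZFHX3. It was -2.37 for COL14A1, -1.53 for EPHA7, -1.42 for MOXD1, -1.31 for VCAN, -1.23 for CXCL12, -1.19 for CLDN11, -1.17 for IGFBP5, -1.04 for SLIT3, -0.97 for LRRC17, -0.95 for KLF2, -0.93 for NPY and -0.90 for ATF3. CXCL14, the largest, was at 18.7 and 5.77 CPM against 97.4 and 59.7 CPM at E21, and at 130.2 and 46.7 CPM against 116 and 5.53 CPM at E28. The share of cells with a CXCL14 UMI was 8.24% and 2.96% in TNMD+ cells and 3.25% and 3.92% in counterparts at E21, and 22.7% and 3.91% against 10.1% and 1.65% at E28, so in E21-ZZ it was higher in TNMD+ cells although the CPM were lower. CXCL14, SERPINI1, PTN, SERTAD4, LUM, HMCN1 and CRABP2, and COL14A1, EPHA7, MOXD1, VCAN, CXCL12 and IGFBP5, were called under all alternatives run for this comparison.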

How the results depend on the processing

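Counts of called genes moved with the settings, and the cause was not tested unless stated. Against the counterparts, 145 genes became 408 with no filter on low counts, 70 without cells holding a myogenic UMI and 0 with no replicate block (the library left out of the model), and 88 to 164 when single libraries were left out. With RLE size factors 145 genes were called, 86 higher and 59 lower. Against cartilage cells, 775 became 490 with DESeq2, 505 with at least 2 TNMD UMIs and 98 with no replicate block, and 264 to 572 with a library left out. Against OGN+ cells, 69 became 337 with no filter, 114 without myogenic UMIs and 0 with no replicate block (179 at an unadjusted p under 0.05), and 21 to 85 with a library left out. Between stages, 17 became 106 with DESeq2, 8 at a mitochondrial limit of 5%, 6 with at least 2 TNMD UMIs, 30 without cells of 5% globin UMIs and 44 without cells of 10 ACTA2 UMIs, and 9 to 253 with a library left out (9 without E21-DZ, 253 without E28-ZZ and 251 without E28-DZ), where the lone library of a stage is assumed to vary like the others. With the breed as a replicate block 24 genes were called. Between breeds, 0 became 9 with DESeq2, 2 with RLE, 161 with no filter, 57 at the 5% limit, 41 with Scrublet, 29 with 2 TNMD UMIs, 3 with no MYH3 UMI, 4 without globin cells, 9 without ACTA2 cells, 11 without myogenic UMIs and 11 with sums of at least 10 cells. It stayed at 0 with no replicate block, and leaving out a library was not possible because no residual degrees of freedom remain. The interaction gave 125 genes with 2 TNMD UMIs, 112 without ACTA2 cells, 62 without myogenic UMIs and 81 to 215 with a library left out. The globin, ACTA2 and myogenic settings, and all of those for the interaction, were chosen after seeing the data.

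The share difference of 3.42 points became 1.45 without E28, 3.39 without E16 and 1.98 to 4.11 without single libraries, in each case without overlap. Its exact permutation p then rose to the smallest that fewer splits allow, 0.133, 0.133 and 0.0571, and describes only that lack of overlap. With at least 2 TNMD UMIs the difference was 1.19 points, and with MATN4 and ACAN not used it was 5.94 points. Direction reversed for ACTC1 (0.21) and PARM1 (0.081) against counterparts and MSC (-0.12) against cartilage cells without myogenic UMIs, for THBS4 without the block (0.0052) and when single libraries were left out (-0.49 without E28-DZ to 0.034 without E28-ZZ), for FMOD when single libraries were left out (-0.0022 without E21-DZ to 0.29 without E28-ZZ), and for the interaction of NPY with 2 TNMD UMIs (0.59). THBS4 and FMOD were never called. With 65.5% of cells chosen on 1 TNMD UMI, counterparts can hold cells that express TNMD at this depth, and 42 early cells allow no test of expression before E21.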
